A study of Mus musculus with 46 samples.

Results

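The XX gonads of mouse embryos homozygous for the Enh13-3bp-12bp-del genotype were compared with wild-type XX gonads at E12.5, the stage just after sex is determined in the mouse gonad. The members were taken by their labels, as the 5 libraries XX Enh13-3bp-12bp-del-hom (called XX homozygotes here) and the 3 libraries XX WT, 8 of the 46 libraries of the series. Enh13 is a distal enhancer of Sox9, and the mutations of the series lie in it. Each library is poly(A) RNA of whole gonad. The labels do not say whether 3bp-12bp-del is 1 allele with both deletions or 2 different alleles, so it is called homozygous only as labelled. For orientation the XX homozygotes were also set against XX Enh13-3bp-del-hom (n = 5), XX Enh13-1bp-ins-hom (n = 5) and XY WT (n = 3), and XY Enh13-3bp-12bp-del-hom (n = 3) entered a test of the difference between the sexes. Strain, litter and the number of animals behind a library are not given in the labels. Nothing in them says that libraries of a group came from separate animals, so p-values measure the spread between these libraries.

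SOX9 is the transcription factor that directs the supporting cells of the bipotential gonad to become Sertoli cells, the cells that organise the testis and secrete anti-Müllerian hormone. Fibroblast growth factor 9 helps to keep Sox9 on in the XY gonad. In the XX gonad the same precursors become pregranulosa cells, a fate that WNT4, RSPO1 and FOXL2 promote, and the 2 programmes are known to repress each other.

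Total estimated counts ran from 30983635 to 41456595 over the 8 libraries. Levels are given as CPM, a gene's counts relative to all counts of its library, and fold changes as log2 of XX homozygotes over XX WT ± standard error. A gene was called at an adjusted p under 0.05 (edgeR quasi-likelihood test, Benjamini-Hochberg over all genes tested). Of 15957 genes 4088 (25.6%) were called, 2331 higher (14.6%) and 1757 lower (11%) in XX homozygotes, and the median log2 fold change of all genes was 0.00. These shares are the background for every list count against XX WT below. With a fold of at least 2, 417 genes were higher (2.61%) and 355 lower (2.22%). Of the calls 57.0% were higher, against 39.2% of the 2949 calls made by limma on TPM. The fold change followed gene length, with a Spearman rho of -0.225 across 15551 genes, which are not independent replicates. With that trend removed 4129 genes were called, 62.4% of them higher. The count of 4088 fell to 2276 genes without XX WT replicate 2 and to 2713 without XX WT replicate 3.

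Marker genes of neighbouring tissues differed between libraries. XX WT replicate 1 held a summed 183 CPM of 9 adrenal genes, against 8.09 to 18.8 CPM in XX homozygotes and 5.74 and 5.22 CPM in the other XX WT libraries. Its 11 neuron and neural crest genes summed to 196 CPM, against 56.9 to 93.7 CPM in XX homozygotes and at most 35.1 CPM in the other XX WT libraries. Genes of the mesonephros, the tissue attached to the gonad, summed to 19.8 to 36.1 CPM in XX homozygotes, 50.7 to 85.8 CPM in XX WT, and 238 CPM in XY WT replicate 3 against 14.4 and 23.0 CPM in the other XY WT libraries. Results that use XY WT are therefore also given without its replicate 3. Against XY WT the sex chromosome genes went with the labels, with Xist higher and 5 Y-linked genes lower in XX homozygotes.

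Sox9 was on in all 5 XX homozygous gonads. It had 151, 216, 219, 266 and 215 CPM in XX homozygotes, against 12.1, 7.84 and 8.39 CPM in XX WT. The groups did not overlap, and XX homozygous replicate 1 was the lowest of its group. The difference was 4.51 ± 0.24 (adjusted p = 7.53e-05, edgeR), and it lay between 4.39 and 4.74 when any 1 library was left out. XY WT gonads had 159, 163 and 84 CPM of Sox9, so that XX homozygous replicate 1 lay within the XY range and the other 4 above it. The lower end of that range was XY WT replicate 3, and without it XX homozygous replicate 1 lay below the XY range. Sox9 lies on chromosome 11 of mm10, from 112782224 to 112787760 on the plus strand (GENCODE annotation).

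BC006965, a transcript read from the opposite strand whose start lies 248 bp from that of Sox9, rose with it. It spans 112663927 to 112781976 of chromosome 11 and had 3.67, 2.65, 1.90, 5.19 and 4.61 CPM in XX homozygotes, against 0.0259, 0.0268 and 0.0933 CPM in XX WT. All 5 homozygous libraries were above all wild-type ones, where only 5 reads were counted in total. The ratio of reads was 76.4 (95% interval 32.6 to 236, counting error only), and the fitted change was 6.19 ± 0.55 (adjusted p = 0.00013). Of the 8 genes near Sox9 that were tested, 2 were called, both higher, and their median was -0.12. The other was Cog1, a Golgi complex subunit, at 0.25. The sources used here do not say how the counting treated strand. The transcripts do not overlap in the annotation.

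Sertoli cell genes rose as a group. Of 26 tested genes of the list 19 were higher and none was lower, and the median log2 fold change was 3.03 against 0.00 over all genes. The number higher was 18 to 21 when single libraries were left out. The secreted hormone and signals of the Sertoli cell were among those that moved most. In bulk tissue, fewer cells of a type and less RNA per cell cannot be told apart, here or below.

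Amh, anti-Müllerian hormone, had 85.7, 34.1, 12.6, 182 and 142 CPM in XX homozygotes, against 0.259, 0.161 and 0.0933 CPM in XX WT. The groups did not overlap, yet the homozygous libraries spanned a 14.5-fold range, with replicate 3 lowest and replicate 4 highest. The change was 9.02 ± 1.61 (adjusted p = 0.0103). Dhh, the hedgehog ligand of Sertoli cells, had 64.7, 46.7, 15.3, 114 and 103 CPM in XX homozygotes, against 1.71, 1.23 and 0.933 CPM in XX WT. Its order of homozygous libraries was that of Amh, over a 7.46-fold range, and its change was 5.73 ± 0.90 (adjusted p = 0.00656). Fgf9 differed in this respect: 20.7, 24.4, 19.6, 27.0 and 23.2 CPM in XX homozygotes, against 2.07, 2.68 and 2.52 CPM in XX WT. Its homozygous libraries lay within 1.38-fold of each other, as those of Sox9 lay within 1.76-fold, and its change was 3.27 ± 0.14 (adjusted p = 4.39e-06).

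**Figure D1:**
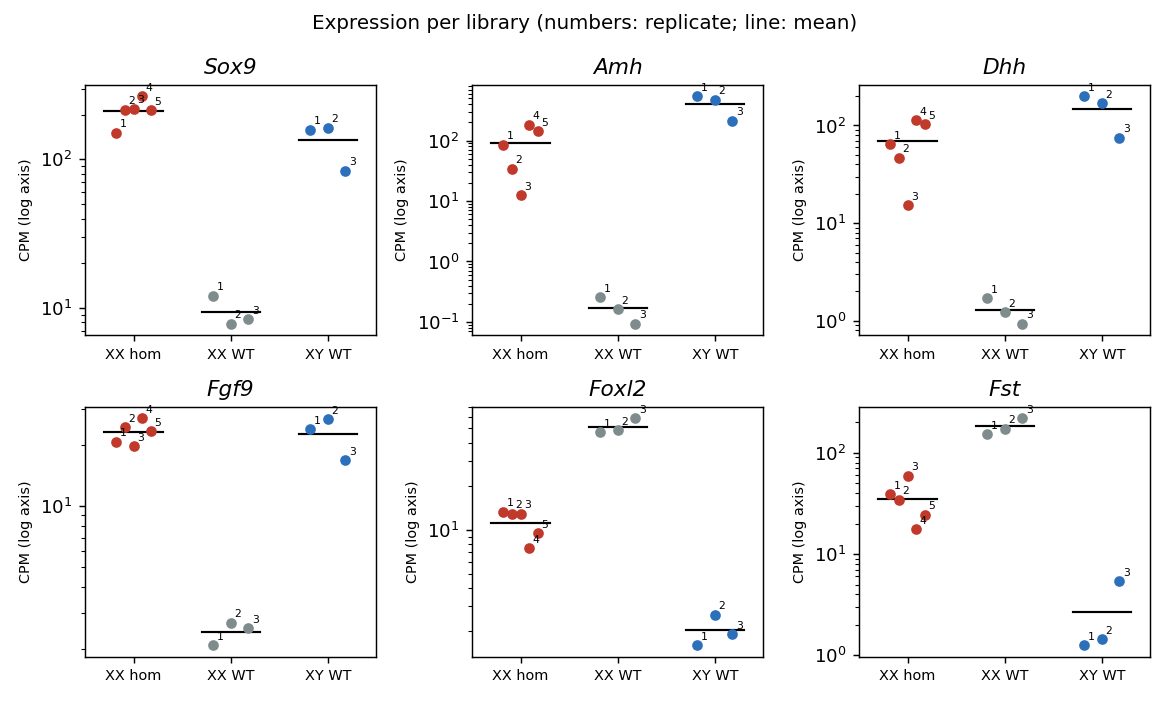
Level of 6 genes in each library, in CPM on a log axis, for XX homozygotes (n = 5), XX WT (n = 3) and XY WT (n = 3). Points carry their replicate number and lines are group means. Sox9 of XX homozygotes lies in the XY WT range in replicate 1 and above it in the other 4, and Fgf9 lies in it in all but replicate 4. Without XY WT replicate 3, Sox9 of homozygous replicate 1 and Fgf9 of homozygous replicates 1, 3 and 5 lie below the XY WT range. Amh and Dhh are spread widely with replicate 3 lowest, and Foxl2 and Fst lie between XX WT and XY WT.

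Gdnf, a growth factor for spermatogonia, averaged 11 ± 4.6 CPM in XX homozygotes and 0.439 ± 0.089 CPM in XX WT (SD, n = 5 and 3), a change of 4.65 ± 0.48. Ptgds, a prostaglandin D synthase of Sertoli cells, rose by 3.91 ± 0.67 and Inhbb, the beta B subunit of activin and inhibin, by 1.30 ± 0.08. Sox8, the close relative of Sox9, rose by 2.80 ± 0.54 (adjusted p = 0.0101). The steroid enzyme gene Hsd17b3 had 1.36 to 9.33 CPM in XX homozygotes, against 0.155, 0.0268 and 0 CPM in XX WT. Dmrt1, a factor that maintains male fate later, moved least of the 19, with 27.0 to 39.0 CPM in XX homozygotes and 19.8 to 22.7 CPM in XX WT (0.58 ± 0.11). Cst9, Aard, Tesc and Mmd2, Sertoli markers at this stage, rose by 4.43, 3.92, 4.86 and 5.17, and Mro by 2.31.

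The 7 Sertoli genes that were not called were Sox10, Cst8, Vnn1, Nr0b1, Cldn11, Erbb4 and Tspan6. Sox10, also a neural crest gene, had 12.7 to 37.0 CPM in XX homozygotes, against 7.14, 0.322 and 0.187 CPM in XX WT. The high wild-type library was replicate 1, the one with adrenal and neural transcripts, and the adjusted p was 0.0738 with it and 0.00302 without it. DESeq2 (0.013), limma on TPM (0.0173) and 1 fit over all 12 groups (2.93e-05) called it with all libraries. Vnn1, a pantetheinase, had 4.33 to 9.74 CPM in XX homozygotes and 5.00 to 5.75 CPM in XX WT. It was not called with all libraries (0.49 ± 0.26, adjusted p = 0.201) but was without homozygous replicate 3 (0.63, adjusted p = 0.0379). In XY WT it had 26.9, 24 and 12.6 CPM, above every XX homozygote.

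Among the 20 genes that rose most were also 2 cerebellins, secreted synaptic proteins that Sertoli cells also make. Cbln4 had 38.7, 34.4, 17.9, 81.7 and 61.7 CPM in XX homozygotes, against 1.86, 2.07 and 2.24 CPM in XX WT (4.53 ± 0.62, adjusted p = 0.00368). Cbln1 rose by 3.98 ± 0.65. Fzd9, a WNT receptor, had 10.7 to 28.4 CPM in XX homozygotes and 0.871 to 1.42 CPM in XX WT (4.07 ± 0.44). The ribosomal protein pseudogene Rpl7a-ps11 was also among the 20. It had 83.2, 101, 113, 118 and 25.6 CPM in XX homozygotes and 0.104, 3.68 and 2.61 CPM in XX WT, but also 54.3, 0.273 and 5.85 CPM in XY WT, and its reads may be shared with near-identical copies.

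Promoter windows were planned for Sox9, BC006965, Amh and Foxl2, but those of Sox9 and Amh were not among the RefSeq windows used. The promoter windows of a secreted Sertoli gene that rose, of the hedgehog ligand and of the pregranulosa factor that fell are shown, since they are the starts of genes on either side of the switch. Each runs from 250 bases before to 50 bases after the RefSeq start (GRCm38.p6), 5′ to 3′ on the gene's strand, and capitals mark the core letters of SOX binding, ACAAT, on either strand.
Cbln4, chr2:172043417-172043716, minus strand: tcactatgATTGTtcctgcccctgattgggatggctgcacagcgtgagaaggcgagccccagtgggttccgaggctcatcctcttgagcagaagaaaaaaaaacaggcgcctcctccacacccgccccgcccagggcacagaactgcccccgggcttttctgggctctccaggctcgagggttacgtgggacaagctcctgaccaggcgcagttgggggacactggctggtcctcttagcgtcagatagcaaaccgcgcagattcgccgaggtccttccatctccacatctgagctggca
Dhh, chr15:98898491-98898790, minus strand: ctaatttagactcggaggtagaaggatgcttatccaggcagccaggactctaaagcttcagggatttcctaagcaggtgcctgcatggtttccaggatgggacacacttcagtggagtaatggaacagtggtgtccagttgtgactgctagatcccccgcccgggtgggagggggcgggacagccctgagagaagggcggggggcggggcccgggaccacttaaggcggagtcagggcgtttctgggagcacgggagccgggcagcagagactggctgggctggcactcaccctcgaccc
Foxl2, chr9:98955357-98955656, plus strand: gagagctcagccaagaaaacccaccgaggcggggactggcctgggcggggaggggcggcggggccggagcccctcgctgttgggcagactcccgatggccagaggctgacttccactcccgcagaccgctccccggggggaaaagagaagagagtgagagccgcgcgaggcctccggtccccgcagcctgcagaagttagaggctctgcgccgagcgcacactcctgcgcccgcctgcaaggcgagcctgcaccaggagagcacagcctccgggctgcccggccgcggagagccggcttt

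The SOX core letters occurred once in the window of Cbln4 and not in those of Dhh and Foxl2. The only BC006965 window, not shown, held none, but it spans 112711307 to 112711606 of chromosome 11. That is a RefSeq start inside the GENCODE span of BC006965, so its start beside Sox9 was not searched. The SOX core letters occurred in 31% of all 32851 RefSeq promoter windows. Of the 20 genes that rose most 12 matched a window, and 3 of their 13 windows held the letters, that of Cbln4 among them. The windows of Cbln4 and Dhh were outside the plan. Of the 20 that fell most 11 matched, and 3 of 11 windows held them. The FOX core TAAACA was in 13.4% of all windows, in 1 of 13 of the genes that rose and in 2 of 11 of those that fell. The ETS core CCGGAA was in 14.9% of all windows, in 1 of 13 of the genes that rose and in 0 of 11 of those that fell. In the 12 windows of the FGF list genes that rose, the ETS core was in 3, the FOX core in 2 and the SOX core in 1. No motif was searched outside these windows.

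Most pregranulosa genes fell against XX WT. Of 21 tested genes 14 were lower and 3 higher in XX homozygotes, with a median of -0.74 against 0.00 over all genes. The number lower was 12 to 16 when single libraries were left out. Against XY WT 9 of 21 were higher, 1 was lower and 11 were not called, where 3.39% of all genes were higher and 2.21% lower. Without XY WT replicate 3, 13 were higher and 1 lower. Foxl2, the transcription factor that maintains the granulosa fate, had 13.4, 12.9, 12.9, 7.51 and 9.51 CPM in XX homozygotes, against 47.2, 48.6 and 59.0 CPM in XX WT. All 5 homozygotes were below all wild types, with replicates 4 and 5 lowest, and the change was -2.17 ± 0.18 (adjusted p = 0.00023). Fst, follistatin, the secreted activin inhibitor of the early ovary, had 38.9, 34.3, 59.3, 17.6 and 24.5 CPM in XX homozygotes, against 153, 173 and 220 CPM in XX WT. Replicate 3, lowest in Amh, was highest in Fst, and the change was -2.36 ± 0.37 (adjusted p = 0.00531).

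Wnt4 averaged 130 ± 38 CPM in XX homozygotes and 288 ± 42 CPM in XX WT (-1.13 ± 0.22). Rspo1, which amplifies WNT signals, fell by 0.70 on the log2 scale. The homeobox genes Irx3 and Msx1 fell by 1.90 and 1.21. Bmp2, a pregranulosa ligand, had 15 to 35.2 CPM in XX homozygotes and 51.4 to 64.2 CPM in XX WT (adjusted p = 0.0268). Its call was lost without homozygous replicate 5 (adjusted p = 0.0558) and without XX WT replicate 1 (0.0574), 2 (0.0813) or 3 (0.0942).

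The pregranulosa list genes that were higher included Lgr5 and Wif1, a secreted WNT inhibitor. Lgr5, a receptor for R-spondins, had 28.3, 27.8, 29.3, 34.3 and 29.7 CPM in XX homozygotes, against 15.5, 13.0 and 14.2 CPM in XX WT (1.09 ± 0.09, adjusted p = 9.47e-05). XY WT had 38.3, 31.3 and 23.0 CPM, so that Lgr5 was higher in XY WT than in XX WT too. Runx1, a factor shared with FOXL2 in the fetal ovary, had 33.2, 44.2, 56.5, 35.8 and 32.2 CPM in XX homozygotes and 47.9, 48.0 and 53.8 CPM in XX WT. It was not called (adjusted p = 0.269), and was without homozygous replicate 3 (-0.44, adjusted p = 0.0122).

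**Figure D2:**
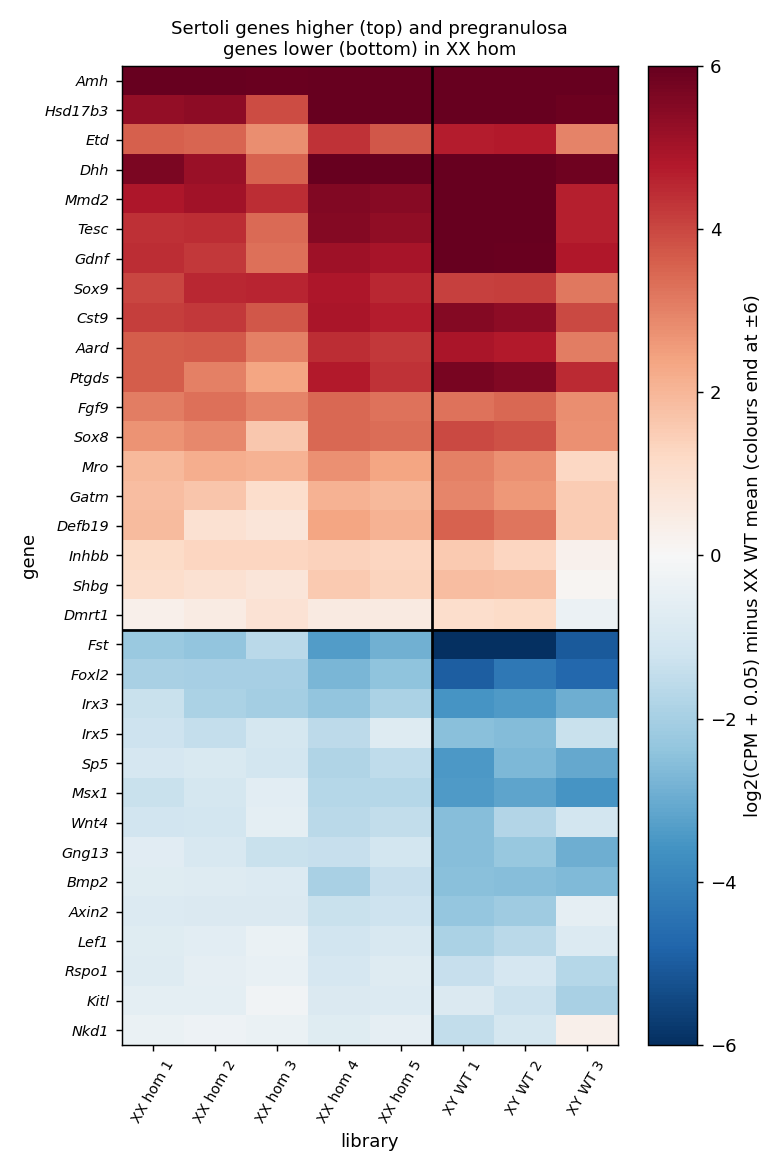
Difference of log2(CPM + 0.05) from the XX WT mean for the 19 Sertoli genes that rose (top) and the 14 pregranulosa genes that fell (bottom), in each XX homozygote and XY WT library. Columns are libraries, and colours end at 6 in either direction. Among XX homozygotes, replicate 3 is palest for most Sertoli genes and replicate 4 is darkest in both blocks.

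Other genes outside the pregranulosa list are given from the 20 that fell most, for which a lack of overlap was a condition of the choice. Stum, a mechanosensory protein, had 14.4, 14.3, 20, 6.32 and 10.2 CPM in XX homozygotes, against 50.8, 56.8 and 69.2 CPM in XX WT (-2.15 ± 0.32). Thbs2, a matrix thrombospondin, had 3.80 to 6.14 CPM in XX homozygotes and 18.3 to 18.5 CPM in XX WT (-1.84 ± 0.14, adjusted p = 7.53e-05). Cd83, an immune surface protein, fell by 2.20, Agtr1a, an angiotensin receptor, by 2.03, and the potassium channel gene Kcnh3 by 1.86. Rnf152, a ubiquitin ligase, fell by 1.77. Akr1c14, a steroid-metabolising reductase with close relatives, fell by 1.86. Ret, the GDNF receptor, had 2.11 to 4.16 CPM in XX homozygotes and 10 to 18.2 CPM in XX WT, the highest in replicate 1 (-2.14 ± 0.26). Ret also belongs to the mesonephros list, of which 3 of 8 genes fell and none rose, with a median of -1.29, or 2 fell and 1 rose, with a median of -0.71, without XX WT replicate 1. The part of mesonephros in these calls was not tested.

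Genes of the FGF pathway rose with Fgf9. Of 19 tested 14 were higher and 2 lower, and the median was 0.71 against 0.00 over all genes. The number higher ran from 10 to 16 when single libraries were left out, and was 11 by limma on TPM. Among them were transcription factors and feedback inhibitors that FGF signalling induces. Spry4, a sprouty inhibitor of the pathway, had 45.7, 53.8, 48.8, 60.4 and 53.1 CPM in XX homozygotes, against 18.3, 18.1 and 16.0 CPM in XX WT (1.60 ± 0.10, adjusted p = 3.53e-05). Etv5, an ETS factor, had 169, 202, 192, 196 and 193 CPM in XX homozygotes, against 88.7, 77.2 and 57.6 CPM in XX WT (1.37 ± 0.13). Neither gene overlapped between groups, and the homozygous libraries lay within 1.32-fold of each other for Spry4 and 1.19-fold for Etv5. Etv4 rose by 1.92, the phosphatase gene Dusp6 by 1.00, and Spry2 and Il17rd, a membrane inhibitor, by 0.79 each. Spry1, another sprouty gene of the list, was not called.

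Of the receptors Fgfr2 and Fgfr3 were lower, and Fgfr1 was not called (0.18, adjusted p = 0.0829). Fgfr2, the receptor tied to Sertoli cell fate, had 119, 100, 99.2, 59.1 and 74.1 CPM in XX homozygotes, against 158, 189 and 217 CPM in XX WT (-1.04 ± 0.22, adjusted p = 0.0125). Without XX WT replicate 3 the adjusted p was 0.0523. Fgfr3 fell by 0.74 (adjusted p = 0.00619, and 0.0585 in 1 fit over all 12 groups). XY WT had 36.5, 40.7 and 80.9 CPM of Fgfr2, the last in the library with mesonephros genes.

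Of 33 tested WNT genes 15 were lower, 7 were higher and 11 were not called, with a median of -0.31. Axin2, Lef1 and Sp5, which canonical WNT signalling induces, fell by 0.99, 0.74 and 1.25. Axin2 had 39.2, 38.0, 38.1, 27.5 and 29.5 CPM in XX homozygotes, against 58.8, 73.1 and 76.4 CPM in XX WT. These groups did not overlap. The ligand genes Wnt9a and Wnt2b fell by 1.30 and 1.47. Genes that rose included Fzd9 and Lgr5, both receptors.

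In the list of activin, inhibin, BMP and AMH signalling, 10 of 32 tested genes were lower and 6 higher, with a median of -0.16. The shares over all genes were 11% lower and 14.6% higher. The ligand gene Bmp5 had 3.06 to 5.93 CPM in XX homozygotes and 12 to 18.3 CPM in XX WT (-1.75 ± 0.23). Bmp7 had 32.3 to 38.1 CPM in XX homozygotes and 21.3 to 26.0 CPM in XX WT (0.63 ± 0.08), so that BMP ligands moved in both directions. Of genes that BMP signalling is known to induce, Id1, Id2, Id3, Smad6 and Msx2 were lower and Smad7 was higher. Id2 had 48.8, 54.2, 54.9, 54.0 and 53.7 CPM in XX homozygotes, against 85.0, 81.6 and 81.8 CPM in XX WT (-0.62 ± 0.05, adjusted p = 9.74e-05). Id3 and Id1, inhibitors of differentiation like Id2, fell by 0.66 and 0.38, the inhibitory SMAD gene Smad6 by 0.49 and the homeobox gene Msx2 by 1.33. Every homozygote was below every wild type in Id1, Id2, Id3, Smad6 and Msx2. The call of Id1 (adjusted p = 0.00673) was lost in 1 fit over all 12 groups (0.0692). Smad7, the other inhibitory SMAD gene, was higher by counts (0.29 ± 0.06, adjusted p = 0.00653), but not on the TPM scale, where the difference was -0.02. Acvr1, a type I receptor for BMP and AMH, rose by 0.76.

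**Figure D3:**
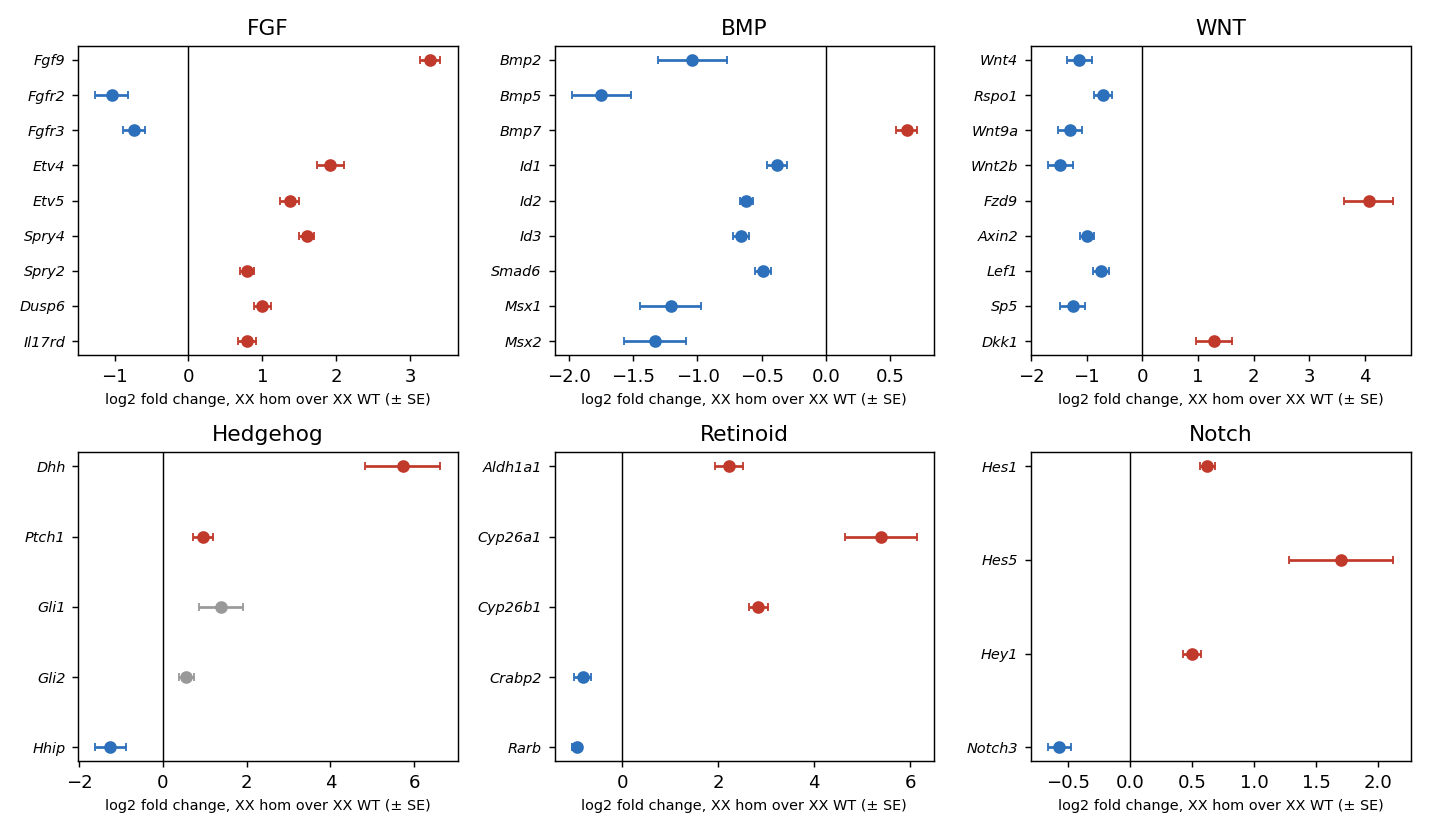
Log2 fold change, XX homozygotes over XX WT, ± standard error, for genes of 6 pathways. Red points were called higher, blue points lower, and grey points were not called. The transcription factor and feedback inhibitor genes shown for FGF signalling rose by 0.79 to 1.92 while Fgfr2 and Fgfr3 fell. Spry1, which is not shown, was not called. Gli1 and Gli2 were not called either.

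Of 12 tested hedgehog pathway genes 2 were higher, Dhh and Ptch1, and 4 were lower, with a median of -0.09. The share higher is near that of all genes (14.6%). The number higher was 4 without homozygous replicate 3 and 1 without any of homozygous replicates 4 and 5 and the XX WT libraries, and the number lower was 1 without homozygous replicate 2 or XX WT replicates 2 or 3 and 2 without homozygous replicate 4 or XX WT replicate 1. Ptch1, the receptor that hedgehog signalling induces, had 111, 81.3, 52.0, 106 and 111 CPM in XX homozygotes, against 50.9, 46.4 and 46.3 CPM in XX WT. Replicate 3 lay just above the wild types and the others well above (0.96 ± 0.25, adjusted p = 0.0272). The call was lost in 5 of 8 omissions: without homozygous replicates 4 (adjusted p = 0.0727) or 5 (0.0628) and without XX WT replicates 1 (0.0765), 2 (0.0936) or 3 (0.0965). Gli1, the effector gene induced most directly, had 19.5, 11.9, 3.45, 14.4 and 18.1 CPM in XX homozygotes, against 5.98, 5.53 and 4.14 CPM in XX WT. Homozygous replicate 3 lay below all wild types and the other 4 above, so Gli1 was not called with all libraries (1.39 ± 0.52, adjusted p = 0.0898), and was without replicate 3 (1.63, adjusted p = 0.000539), by DESeq2 (0.0354) and in 1 fit over all 12 groups (0.0137). Gli2 was at 0.56 (adjusted p = 0.0542), and was called without replicate 3 (0.000427), by DESeq2 (0.00564) and in 1 fit over all 12 groups (0.00219).

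Hhip, a secreted hedgehog antagonist that is otherwise induced by the signal, was lower, with 1.73, 0.602, 0.534, 0.754 and 1.26 CPM in XX homozygotes, against 2.41, 2.25 and 2.43 CPM in XX WT (-1.25 ± 0.36, adjusted p = 0.0286). The call was lost in 5 omissions, at adjusted p of 0.0584 and 0.0617 without homozygous replicates 2 and 4, and of 0.0664, 0.0755 and 0.0763 without XX WT replicates 1, 2 and 3. In 1 fit over all 12 groups the adjusted p was 0.524. XY WT had 42.3, 17.7 and 29.1 CPM.

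Retinoid genes moved in both directions. Of 17 tested 3 were higher and 5 lower, with a median of -0.23, where 14.6% of all genes were higher and 11% lower. Cyp26b1, which degrades retinoic acid in the fetal testis, had 120, 132, 126, 190 and 173 CPM in XX homozygotes, against 23.1, 22.1 and 17.8 CPM in XX WT (2.84 ± 0.19, adjusted p = 0.000113). Cyp26a1, a related enzyme, had 0.411 to 1.44 CPM in XX homozygotes, against 0.0259, 0.0268 and 0 CPM in XX WT, where 2 reads were counted. Its ratio of reads was 49.8 (95% interval 13.6 to 415, counting error only; adjusted p = 0.00104). XY WT had 0.117, 0.121 and 0.0629 CPM of Cyp26a1, below every XX homozygote. Aldh1a1, which makes retinoic acid, rose by 2.23. Rarb, a receptor gene that retinoic acid induces, had 5.72 to 6.62 CPM in XX homozygotes and 11 to 12.8 CPM in XX WT (-0.95 ± 0.10; adjusted p = 0.000268, and 0.17 in 1 fit over all 12 groups), and Crabp2, a binding protein, fell by 0.82.

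Of 18 Notch pathway genes 4 were higher and 2 lower, with a median of 0.03, where 14.6% of all genes were higher and 11% lower. The target genes Hes1 and Hey1 rose by 0.62 and 0.50. Hes1 had 38.8 to 45.2 CPM in XX homozygotes and 27.4 to 28.2 CPM in XX WT. Hes5 rose by 1.70 (adjusted p = 0.0148), a call lost without XX WT replicate 2 (adjusted p = 0.0644) or 3 (0.0585). The receptor gene Notch3 fell by 0.57, a call lost in 1 fit over all 12 groups (adjusted p = 0.115).

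Of 17 factors of the bipotential gonad 4 were higher and 4 lower, with a median of 0.06, where 14.6% of all genes were higher and 11% lower. Nr5a1, a nuclear receptor that acts with SOX9 on Amh, had 346, 408, 374, 444 and 429 CPM in XX homozygotes, against 188, 216 and 257 CPM in XX WT (0.88 ± 0.11, adjusted p = 0.000768). Gata4 rose by 0.68 and Tcf21 by 0.69. Wt1 was not called, with 451 to 551 CPM in XX homozygotes and 421 to 518 CPM in XX WT. Of 12 Sox genes outside the SoxE group 5 were higher and none lower, with a median of 0.15. They included Sox13 and Sox6, at 0.87 each, and Sox4, at 0.30.

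Of 20 cell cycle genes 12 were higher and 2 lower, with a median of 0.29. This count depended on the scale, since 5 were higher by limma on TPM, and 5 to 14 when single libraries were left out. Ccnd1, cyclin D1, had 204, 233, 160, 175 and 201 CPM in XX homozygotes, against 132, 99.5 and 88.2 CPM in XX WT (0.89 ± 0.16), and Pcna, the replication clamp, rose by 0.50. Cdkn1b, the cell cycle inhibitor p27, had 82.1, 70.3, 92.7, 52.8 and 61.2 CPM in XX homozygotes, against 147, 171 and 199 CPM in XX WT (-1.24 ± 0.18, adjusted p = 0.00261). Neither Ccnd1 nor Cdkn1b overlapped between groups.

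Of 16 steroidogenic genes 8 were higher and 1 lower, with a median of 0.63. Star, which carries cholesterol into mitochondria, had 12.1 to 16.5 CPM in XX homozygotes and 7.02 to 7.68 CPM in XX WT (1.02 ± 0.11). Hsd3b1, one of a family of near-identical enzymes whose reads may be shared, rose by 1.08, a call lost in 1 fit over all 12 groups (adjusted p = 0.268). Cyp19a1, aromatase, reached 0.321 to 0.693 CPM in XX homozygotes, against 0.0311 to 0.104 CPM in XX WT (2.96 ± 0.52). Lhcgr, the receptor for luteinizing hormone, fell by 1.38, a call also lost in that fit (adjusted p = 0.0653). Cyp17a1, the enzyme of androgen synthesis in fetal Leydig cells, and Insl3, a Leydig cell hormone, were not called, and Cyp17a1 had 0.578 to 0.939 CPM in XX homozygotes and 0.913 to 1.34 CPM in XX WT.

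Germ cell genes differed little. Of 16 general germ cell genes none was called in either direction by edgeR, with a median of 0.03, and their summed level was 495 to 661 CPM in XX homozygotes and 337 to 687 CPM in XX WT. Of 11 female meiosis genes 1 was lower, Msx2, which somatic cells also express. Of 5 tested male germ cell genes 3 were higher, all of the Nodal pathway. Lefty2, a Nodal inhibitor, had 21.4, 19.1, 12.4, 27.5 and 28.1 CPM in XX homozygotes, against 1.92, 1.61 and 1.15 CPM in XX WT (3.81 ± 0.33, adjusted p = 0.000289). Lefty1 rose by 2.56 and Nodal by 1.18. The 2 Lefty genes are near-identical, so reads may be shared between them.

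Of the remaining cell type lists, 5 of 15 stromal genes were lower and 2 higher, among them Dcn, the matrix protein decorin, at -0.64 ± 0.09 and Maf at -0.55. The call of Dcn was lost in 1 fit over all 12 groups (adjusted p = 0.15). Of 14 macrophage genes 5 were lower and none higher, with a median of -0.42, but 1 without XX WT replicate 1 (median -0.28), 2 without XX WT replicate 3 and 3 without any of homozygous replicates 1, 2, 4 and 5. None was lower in 1 fit over all 12 groups. The list had a summed level of 67.0 to 150 CPM in XX homozygotes and 118 to 157 CPM in XX WT. The colony-stimulating factor receptor Csf1r (-0.51, adjusted p = 0.017) lost its call without XX WT replicate 1 (adjusted p = 0.0633) and in the 12-group fit (0.254). Mrc1, the mannose receptor (-0.55), lost its call in the 12-group fit (adjusted p = 0.168). Of 16 endothelial genes 1 was higher and none lower, and of 10 erythroid genes 1 was higher. None of 11 neuron and neural crest genes was called by edgeR, with a median of -1.61. Without XX WT replicate 1 there were 3 higher, and the median was 0.82. Of 7 adrenal genes 1 was higher, with a median of -2.81, or 1.01 without XX WT replicate 1. Of 6 surface epithelium genes 2 were lower. Of 16 basement membrane genes 2 were higher and 6 lower, led by Col18a1, a proteoglycan collagen, at 1.10 ± 0.23 and Lama2, a laminin chain, at -1.32 ± 0.22. Of 12 immediate early genes 4 were higher, among them Jun (0.70), Egr1 (0.65) and Nr4a1 (1.09). Egr1 lost its call in 1 fit over all 12 groups (adjusted p = 0.282). Of 10 heat shock genes 4 were higher, and of 19 sterol synthesis genes 2 were higher. For all these lists the shares over all genes were 14.6% higher and 11% lower.

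The 5 XX homozygous gonads were not alike. Of the 19 Sertoli genes that rose, replicate 3 was the lowest homozygote in 15 and replicate 4 the highest in 18. Of the 14 pregranulosa genes that fell, replicate 4 was the lowest in all 14. The same libraries stood at the ends over the 417 genes higher by at least 2-fold, of which replicate 3 was lowest in 254 (60.9%) and replicate 4 highest in 242 (58%), and these counts share the libraries that chose the genes. For those genes the median log2 difference from the XX WT mean was 1.59, 1.48, 1.30, 1.95 and 1.80 in replicates 1 to 5. Over the 355 genes lower by at least 2-fold it was -1.10, -1.27, -1.19, -1.58 and -1.45.

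A score, the mean log2 CPM of the Sertoli list minus that of the pregranulosa list, placed the XX homozygotes between the wild types. It was -0.48, -0.62, -1.21, 0.48 and 0.10 in XX homozygotes, against -3.53, -4.00 and -4.28 in XX WT and 1.96, 1.65 and 0.33 in XY WT. No homozygote reached the XX WT range, and replicate 4 passed the lowest XY WT library, replicate 3, the one with high mesonephros genes. Group means were -0.35 ± 0.65 in XX homozygotes and -3.94 ± 0.38 in XX WT (SD). No p is given, since the lists were chosen with these genes' behaviour known.

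**Figure D4:**
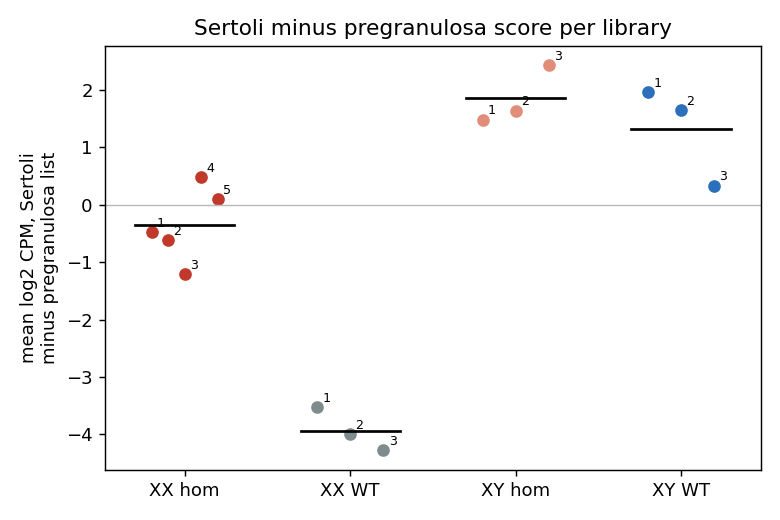
Sertoli minus pregranulosa score per library, the mean log2 CPM of Sertoli genes less that of pregranulosa genes. Points carry their replicate number and lines are group means, from left to right XX homozygotes (n = 5), XX WT (n = 3), XY Enh13-3bp-12bp-del-hom (n = 3) and XY WT (n = 3). The XX homozygotes range from -1.21 to 0.48, above all XX WT libraries.

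Against XY WT, with all libraries, the XX homozygous gonads differed in 886 of 15815 genes (5.6%), 536 higher (3.39%) and 350 lower (2.21%). That was fewer than against XX WT, but the order depended on the libraries. Without XY WT replicate 3 the count was 2474 of 16014 (15.4%). This lay above the 2276 against XX WT without XX WT replicate 2, and below the 3134 and 2713 without XX WT replicates 1 and 3. Without XY WT replicate 1 the count against XY WT was 322. The other omissions that moved it by more than 1.5 times gave 442 without XY WT replicate 2, and 492, 353 and 557 without homozygous replicates 1, 2 and 5. Of the calls 60.5% were higher, against 74.8% by limma on TPM and 49.1% in 1 fit over all 12 groups. Of 26 Sertoli genes none was higher and 3 were lower, or 1 and 6 without XY WT replicate 3. Of 21 pregranulosa genes 9 were higher and 1 lower, or 13 and 1 without that library.

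Sox9 was not called by edgeR over these groups (0.66 ± 0.23 in XX homozygotes over XY WT, adjusted p = 0.151; 0.42 without XY WT replicate 3, adjusted p = 0.149). It was called higher by DESeq2 (adjusted p = 0.039), by limma on TPM (0.048) and in 1 fit over all 12 groups (0.0102). Amh (-2.16 ± 0.73, adjusted p = 0.131), Dhh (-1.10 ± 0.56, adjusted p = 0.322) and Gdnf (-1.25 ± 0.40, adjusted p = 0.114) were likewise not called by edgeR, and were at -2.46, -1.40 and -1.55 without XY WT replicate 3. Amh was called lower in 1 fit over all 12 groups (adjusted p = 0.0455), and Gdnf there (0.0168) and by DESeq2 (0.0147). Every XX homozygote was below every XY WT library in Amh. Foxl2 was higher in XX homozygotes than in XY WT, which had 1.60, 2.61 and 1.92 CPM (2.46 ± 0.26, adjusted p = 0.00242; 2.44 without XY WT replicate 3). Fst was higher by 3.69 ± 0.61 (adjusted p = 0.0132), a call lost without XY WT replicate 2 (0.0544), and by 4.70 without XY WT replicate 3. Stum, Msx1 and Sp5 were higher by 3.00, 2.13 and 1.81, and by 3.11, 2.07 and 1.83 without XY WT replicate 3.

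In 3 further genes homozygous replicate 3 was close to or above XX WT, and the other homozygotes were not. Scrt2, a zinc finger repressor known from neurons, had 8.95, 12, 31.6, 9.16 and 9.92 CPM in XX homozygotes, against 21.6, 23.4 and 28.6 CPM in XX WT and 0.350, 0.818 and 0.503 CPM in XY WT. Replicate 3 was above every XX WT library and the other 4 homozygotes were below all of them. It was not called against XX WT (-0.76 ± 0.45, adjusted p = 0.263), was called without replicate 3 (-1.27, adjusted p = 0.000132), and was called against XY WT (4.67 ± 0.60, adjusted p = 0.00588; 4.63 without XY WT replicate 3). Chrm4, a muscarinic receptor, and Slitrk1, a neuronal membrane protein, were also highest in replicate 3, at 76.1 and 37.5 CPM against 24.1 to 39.9 and 13.2 to 18.8 CPM in the other homozygotes. Against XY WT they were higher by 3.76 ± 0.45 and 3.35 ± 0.43, and by 3.83 and 3.45 without XY WT replicate 3. Against XX WT their adjusted p was 0.0963 and 0.196 with all libraries, and 0.000823 and 0.000329 without replicate 3, and DESeq2 called Chrm4 with all libraries (0.0468).

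Phlda2, an imprinted growth regulator, and Tmem171 were higher than in XY WT by 3.24 ± 0.35 and 3.18 ± 0.34 (3.27 and 3.16 without XY WT replicate 3). Rec8, a meiotic cohesin, had 21.4 to 41.8 CPM in XX homozygotes and 6.23 to 9.37 CPM in XY WT (2.18 ± 0.27, adjusted p = 0.00518; 2.42 without XY WT replicate 3). Cdkn1c, a cell cycle inhibitor, was higher by 1.17 (1.18 without XY WT replicate 3). Cyp26a1 was higher by 3.11 (adjusted p = 0.0162), a call lost without XY WT replicates 1 (0.0605) or 2 (0.0555), and by 2.90 without replicate 3. Runx1 was higher by 1.17 (adjusted p = 0.0158), lost without the same replicates (0.0646 and 0.0645), and by 1.35 without replicate 3.

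Of 12 tested hedgehog genes 3 were lower than in XY WT and none higher, or 2 and 1 without XY WT replicate 3. Hhip was at -4.94 ± 0.41 (adjusted p = 0.00104; -4.94 without XY WT replicate 3). Ptch1 was at -1.36 ± 0.24 (adjusted p = 0.0163), a call lost without homozygous replicate 2 (0.0512) or XY WT replicate 1 (0.0601), and at -1.30 without XY WT replicate 3. Gli1 had 3.45 to 19.5 CPM in XX homozygotes and 44.3 to 46.8 CPM in XY WT, without overlap. Its adjusted p was 0.0451 and passed the threshold in only 1 of 8 omissions, that of homozygous replicate 3 (0.00394), while the others gave up to 0.11, with 0.102 without XY WT replicate 3. Inhba, the beta A subunit of activin, was at -3.18 ± 0.50, or -2.32 without XY WT replicate 3, the library with the highest level, 22.5 CPM. Cacna2d2, a calcium channel subunit, was at -2.55 ± 0.38, or -2.74 without XY WT replicate 3. Gjb2, a connexin, was at -2.75 ± 0.51 (adjusted p = 0.0199), lost without homozygous replicate 2 (0.0572) or XY WT replicates 1 (0.068) or 2 (0.0633), and at -3.08 without replicate 3. The estrogen-forming enzyme gene Hsd17b1 was at -3.17 ± 0.54 (adjusted p = 0.0136), lost without XY WT replicate 1 (0.0545), and at -3.56 without replicate 3.

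**Figure D5:**
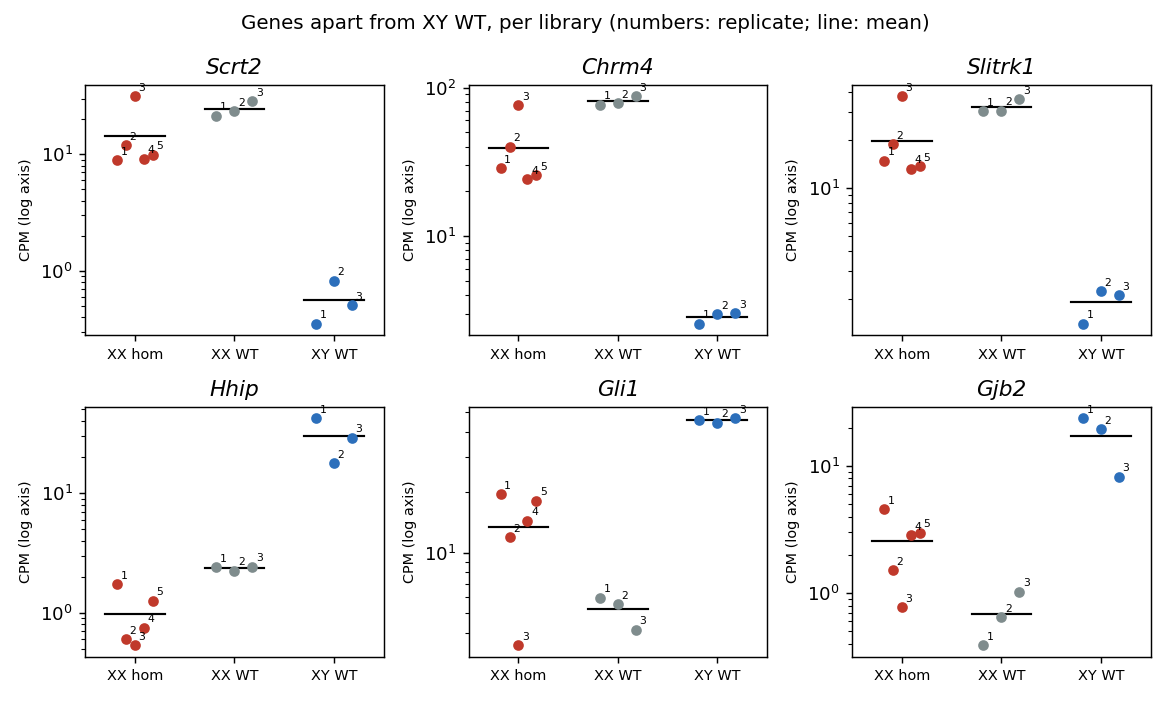
Level per library, in CPM on a log axis, of 6 genes in which XX homozygotes (n = 5) stood apart from XY WT (n = 3), with XX WT (n = 3) between them on the axis. Points carry their replicate number and lines are group means. Homozygous replicate 3 is highest in Scrt2, Chrm4 and Slitrk1 and lowest in Hhip, Gli1 and Gjb2.

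The change with genotype differed between the sexes in 97 of 16259 genes (0.597%), 80 of them with a more positive change in XX than in XY (0.492%) and 17 with a more negative one (0.105%). This number depended on the libraries. It was 2957 (17.9% of 16499) without XY WT replicate 3 and 208 without homozygous XX replicate 3. It was between 10 and 37 without any of XX WT replicates 2 and 3, XY WT replicates 1 and 2, XX homozygous replicate 5 and each XY Enh13-3bp-12bp-del-hom library, and was 62 without XX WT replicate 1 or XX homozygous replicate 4. Of the 9 genes followed over the omissions, those called in each were Sox9 (3.57 ± 0.36, adjusted p = 0.0018), Fgf9 (3.06 ± 0.23, adjusted p = 7.95e-05), Lefty2 (4.03 ± 0.49), Mmd2 (4.68 ± 0.54) and Spry4 (1.41 ± 0.19). Sox9 had 222, 323 and 247 CPM in XY Enh13-3bp-12bp-del-hom, against 159, 163 and 84 CPM in XY WT. Fgf9 had 24, 29.7 and 25.2 CPM in XY Enh13-3bp-12bp-del-hom, against 23.8, 26.7 and 16.8 CPM in XY WT.

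Amh was called (8.36 ± 1.52, adjusted p = 0.0297), but lost its call in 8 of 14 omissions, with an adjusted p of up to 0.107. BC006965 (4.26 ± 0.72, adjusted p = 0.0263) likewise lost it in 8 of 14, with up to 0.0981. It had 7.71, 8.93 and 8.90 CPM in XY Enh13-3bp-12bp-del-hom, against 2.53, 3.00 and 1.07 CPM in XY WT. Cyp26b1 (2.41 ± 0.34, adjusted p = 0.0116) lost its call without XX WT replicate 3 (0.0555). Peg10, an imprinted gene of retrotransposon origin, changed in the opposite sense (-1.36 ± 0.20, adjusted p = 0.0137), and lost its call without XX WT replicate 3 (0.063) or XY WT replicates 1 (0.0588) or 2 (0.0637). Peg10 had 359 to 507 CPM in XX homozygotes, against 827, 728 and 889 CPM in XX WT.

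The other homozygous genotypes were close to this one in Sox9. It averaged 214 ± 41 CPM in XX 3bp-12bp-del homozygotes, 179 ± 22 CPM in XX 3bp-del homozygotes and 169 ± 30 CPM in XX 1bp-ins homozygotes (SD, n = 5 each). The direct difference was 0.25 ± 0.13 from XX 3bp-del homozygotes (adjusted p = 0.188), and it was called without 3bp-12bp-del replicate 1 (0.0233) and by limma on TPM (0.0189). From XX 1bp-ins homozygotes it was 0.33 ± 0.15 (adjusted p = 0.226). These values do not show that the genotypes act alike. Amh did not differ beyond the spread between libraries from XX 3bp-del homozygotes (0.86 ± 0.72, adjusted p = 0.414), and it averaged 91.3 ± 71 CPM in XX 3bp-12bp-del homozygotes, 50.1 ± 28 CPM in XX 3bp-del homozygotes and 226 ± 363 CPM in XX 1bp-ins homozygotes.

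Across all genes, 4360 of 15605 (27.9%) were called between XX 3bp-12bp-del and XX 3bp-del homozygotes, 2327 higher (14.9%) and 2033 lower (13%), but only 96 (0.615%) with a fold of at least 2. The fold change followed gene length, with a Spearman rho of 0.506 across 15365 genes, which are not independent replicates. With that trend removed 2515 genes were called. By limma on TPM 88.6% of the calls were higher, against 53.4% by edgeR, and the median log2 fold change of all genes was 0.14 by limma, against -0.01 by edgeR. Values after removal of the trend are given beside the others, and Sox9 and Amh were then at 0.12 and 0.97, not called. Foxl2 averaged 11.3 ± 2.6 CPM in XX 3bp-12bp-del homozygotes and 20.3 ± 5.4 CPM in XX 3bp-del homozygotes (-0.85 ± 0.21, adjusted p = 0.0134; -0.92 after removal, adjusted p = 0.0181). Sp5 was lower by 0.76 on the log2 scale (-0.76 ± 0.19; -0.70 after removal). Id1 had 36.2 to 45.7 CPM in XX 3bp-12bp-del homozygotes and 59.1 to 67.4 CPM in XX 3bp-del homozygotes, without overlap (-0.61 ± 0.06, adjusted p = 0.000122; -0.40 after removal, adjusted p = 0.00153). Id3 was at -0.64 ± 0.09 (-0.49 after removal).

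Cyp26b1 had 120 to 190 CPM in XX 3bp-12bp-del homozygotes and 62.9 to 106 CPM in XX 3bp-del homozygotes (0.83 ± 0.18, adjusted p = 0.00675; 0.68 after removal, adjusted p = 0.0424). Lrp4, a receptor of the LDL family, and Kcnh1, a potassium channel, were higher by 1.09 ± 0.17 and 1.08 ± 0.16 (0.75 and 0.80 after removal). Ptch1 had 52.0 to 111 CPM in XX 3bp-12bp-del homozygotes and 39.8 to 54.4 CPM in XX 3bp-del homozygotes (0.97 ± 0.20, adjusted p = 0.00614). After removal of the trend it was at 0.66 (adjusted p = 0.0561).

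Between XX 3bp-12bp-del and XX 1bp-ins homozygotes 677 of 15619 genes were called (4.33%), 439 higher (2.81%) and 238 lower (1.52%), and 9 (0.0576%) with a fold of at least 2. The fold change again followed gene length (rho 0.421). With the trend removed edgeR called 0 genes, against 3644 genes (23.3%) with an unadjusted p under 0.05 in edgeR and 1725 called by DESeq2, both without the removal. By limma on TPM 96.1% of the calls were higher, against 64.8% by edgeR, and the median log2 fold change of all genes was 0.12 by limma, against -0.01 by edgeR. The count was 38 to 364 in 6 omissions of 1 library, with 38 without 3bp-12bp-del replicates 2 or 5, 58 without 1bp-ins replicate 2, 114 without 3bp-12bp-del replicate 1, and 215 and 364 without 1bp-ins replicates 3 and 4. Tmem254, a membrane protein, had 55.8 to 78.2 CPM in XX 3bp-12bp-del homozygotes and 23.9 to 46.4 CPM in XX 1bp-ins homozygotes (1.14 ± 0.18, adjusted p = 0.0181; 1.23 after removal, adjusted p = 0.0519). Its call was lost without 1bp-ins replicate 2 (0.0576) and without 3bp-12bp-del replicates 2 (0.0585) or 5 (0.051).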

How the data were processed

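Poly(A) RNA of whole mouse gonads was sequenced, per the labels' protocols. The authors deposited estimated counts per gene, which need not be whole (8.0 to 8.9% were not), and TPM, a length-scaled share of the library, for the same 33331 gene rows, deposited by the authors as 2 tables. There was 1 column in each that matched no sample and was not used. Coordinates are in mm10, the build that the submitters' processing notes name. Which aligner and quantifier were run, and with which strand setting, is not given in the sources used here. Groups came from the labels.

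Estimated counts were rounded and tested with edgeR 4.0.16 in R 4.3.3 (TMM, filterByExpr, robust quasi-likelihood F test, Benjamini-Hochberg adjustment, threshold 0.05). Only the groups compared entered each fit. CPM were scaled by TMM over 46 libraries. Alternatives were other scaling, no filter, DESeq2 1.42.0, limma 3.58.1 on log2(TPM + 1), a replicate block, a fit over 12 groups, leaving out each library and, chosen after seeing the data for the comparisons other than that with XX WT, removal of the gene length trend (loess, span 0.5). A score averaged log2 CPM with a prior count of 2. The edgeR step was tested on simulated data. Counting intervals cover counting error only. No 2 libraries of a group agreed within sampling noise: over 39 pairs within groups the chi-square of their counts was at least 13.28 per degree of freedom.

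The members and the 29 gene lists were chosen with earlier results of these data known. Genes named are Sox9, BC006965, up to 6 called and 3 uncalled genes a list, the 20 that rose and 20 that fell most without overlap, and 10 each way in other comparisons, of which the text gives part. For the 20 and the 10, genes needed a mean log2 CPM of at least 1, and predicted genes were left out. Mro, Dmrt1, Sox8, Vnn1, Wnt4, Rspo1, Bmp2, Axin2, Lef1, Lgr5, Spry2, Il17rd, Fgfr3, Id1, Id2, Id3, Smad6, Smad7, Bmp7, Acvr1, Gli1, Star, Cldn11, Cst8, Erbb4, Wif1, Cyp17a1, Insl3 and, against XY WT, Cdkn1c fall outside that rule and were chosen after their values were seen. A result on 1 gene is not reported here.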

Additional observations from a re-analysis of the deposited data

Results flagged for a closer look

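Among 113 genes checked in the 5 XX homozygous libraries, 6 had a library far from the others, where chance gives about 1 in 20 groups. The gap to the nearest library, as a share of the group's range on the log2 CPM scale, was 0.772 for Rpl7a-ps11 with replicate 5 lowest and 0.81 for Id2 with replicate 1 lowest. Replicate 3 stood apart in the other 4, as the highest in Id3 (0.784) and Scrt2 (0.771) and the lowest in Gli1 (0.715) and Sox6 (0.719).

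The effect of the genotype differed between the sexes by the interaction term of edgeR for 9 of the genes named. As log2 effect in XX minus that in XY, it was 3.57 for Sox9, 8.36 for Amh, 3.06 for Fgf9, 4.03 for Lefty2, 4.68 for Mmd2, 1.41 for Spry4, 2.41 for Cyp26b1, 4.26 for BC006965 and -1.36 for Peg10. Without XY WT replicate 3, the library with mesonephros genes, the differences were 3.81 for Sox9, 8.66 for Amh, 3.23 for Fgf9, 4.13 for Lefty2, 5.02 for Mmd2, 1.53 for Spry4, 2.65 for Cyp26b1, 4.59 for BC006965 and -1.43 for Peg10, and all 9 were called. Spry4 had 54.4, 59.5 and 46.4 CPM and Mmd2 69.6, 73.7 and 82.0 CPM in XY Enh13-3bp-12bp-del-hom.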

How the results depend on the processing

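Sox9 against XX WT stayed between 4.10 and 4.74 and was called in every alternative. The number of genes called against XX WT stayed within 1.5 times of 4088 with other scaling, no filter, DESeq2, 1 fit over 12 groups, limma and length removal, and ran from 2276 to 4493 when 1 library was left out. Against XY WT it was 1778 by DESeq2 and 2289 in 1 fit over 12 groups, and 322 to 2474 with 1 library left out. Against XX 3bp-del homozygotes it was 2515 with the length trend removed and 3218 to 4810 with 1 library left out. Against XX 1bp-ins homozygotes it was 1725 by DESeq2, 1779 by limma, 0 with the length trend removed and 38 to 898 with 1 library left out. Of the sex difference it was 423 by DESeq2, 437 in 1 fit over 12 groups, 210 with the length trend removed and 10 to 2957 with 1 library left out. In that test 82.5% of the calls were larger in XX, 65.2% by DESeq2 and 70.9% in the 12-group fit. Its differences followed gene length with a Spearman rho of -0.253 across 15625 genes. The score difference, 3.59, was 2.91 on log2(TPM + 1), and 3.38 to 3.80 with 1 library left out. Over the gene results followed, the 12-group fit kept 133 on their side of the threshold, lost 12 calls and gained 6, and DESeq2 kept 145 and gained 6. Summed over all omissions of 1 library, 1212 were kept, 65 calls were lost and 9 gained. Smad7 was the 1 named gene that reversed, at -0.02 by limma on TPM. The causes were not tested. Depth limited the ratios of Cyp26a1 and BC006965, with 2 and 5 reads in XX WT.

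With the replicate number as a block the calls numbered 1217 against XX WT, 267 against XY WT and 2848 against XX 3bp-del homozygotes. They numbered 187 against XX 1bp-ins homozygotes (86.6% higher) and 11 for the sex difference, and Sox9 was at 4.38. Over the gene results followed, the block kept 125, lost 23 calls and gained 3. Calls lost against XX WT included Nodal (adjusted p = 0.0872, edgeR), Irx3 (0.0825), Crabp2 (0.166) and Rpl7a-ps11 (0.0614). The replicate numbers were not taken to pair the samples. Deviations of same-numbered libraries correlated at -0.0505, -0.057 and -0.126 against XX WT, and at -0.218, 0.117 and 0.168 against XY WT. Homozygous replicates 2 and 3 correlated best with their own number against XY WT, and replicate 5 against XX 1bp-ins homozygotes. None did against XX WT or XX 3bp-del homozygotes. With so few libraries in a group these correlations cannot exclude a pairing.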
